A study of Oryza sativa with 32 samples.

Results

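The MSUv.7 annotation of the rice genome, deposited with a root RNA-seq study of aluminum (Al) resistance, was searched for loci of the CACTA and Mutator classes of DNA transposons. A locus was a member when its representative gene model was marked as a transposable element (TE) and its description held the word CACTA or Mutator. The search found 2148 of 55986 loci, 2089 of them CACTA and 59 Mutator. CACTA loci made up 3.73% of all loci and 12.3% of the 16937 TE loci, and Mutator loci 0.105% and 0.348%. All 2148 lay on the 12 chromosomes. No locus without the TE mark held either word.

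The study compared whole roots of 4 genotypes in control solution and after 4 h at 80 μM Al3+ activity, with 4 biological replicates of each of the 8 groups and 32 libraries in all. The genotypes were Azucena, a tropical japonica variety, IR64, an indica variety, and their reciprocal near-isogenic lines AZU[IR64121] and IR64[AZU12.1]. Each of these lines carries a segment of chromosome 12 from the other parent, which spans the Al resistance transcription factor gene ART1. The annotation holds positions and descriptions for the Nipponbare reference genome. It holds no read counts and no values of a library, so no group was compared, and the elements carried by Azucena and IR64 were not analysed here. It is also a single list without replicates. No test was run, and the number of the 12 chromosomes that showed a difference in the same direction is given in place of a replicate spread.

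CACTA elements, named for the bases at their ends and also known as En/Spm, and Mutator elements are class II transposons. A transposase cuts them out and inserts them elsewhere. In maize, the En/Spm element encodes the proteins TNPA and TNPD, and Mutator is known for its frequent insertion near genes. Ty3-gypsy and Ty1-copia elements are class I retrotransposons, which are copied through RNA and make up much of the heterochromatin around plant centromeres. The list held 3702 Ty3-gypsy and 772 Ty1-copia loci, and 12017 retrotransposon loci in all. A further 1674 loci, called other transposon loci here, were described as transposon proteins without either word, 1497 of them as unclassified.

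CACTA loci were most numerous on chromosome 4, with 236 loci, chromosome 11, with 232, and chromosome 12, with 230. Chromosome 3 held the fewest, 94. Over the length covered by the list, the density was lowest on chromosome 3 at 2.58 loci per Mb and highest on chromosome 12 at 8.35, a ratio of 3.24. Chromosome 1 had 3.81 and chromosome 2 had 3.70 CACTA loci per Mb, and the other chromosomes lay at 5.41 or above. The CACTA share of TE loci ranged from 7.95% on chromosome 3 to 15.9% on chromosome 11, a narrower spread. By that share chromosome 3 was again lowest, while chromosome 2, with 10.7%, and chromosome 1, with 11.3%, were close to chromosome 5, with 11.1%. Ty3-gypsy density was lowest on chromosome 1, at 5.55 loci per Mb, and, like CACTA density, highest on chromosome 12, at 14.3. Ty3-gypsy loci outnumbered CACTA loci on 12 of 12 chromosomes, and CACTA loci outnumbered Ty1-copia loci on 12 of 12.

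Mutator loci did not follow that order. Chromosome 3, with the fewest CACTA loci, held the most Mutator loci, 10 of 59 (16.9%), and the highest Mutator density, 0.275 loci per Mb. Chromosomes 1 and 12 held 7 each and chromosome 7 held 2, at 0.0674 per Mb. With counts this small, the differences between chromosomes carry a large counting error.

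**Figure D1:**
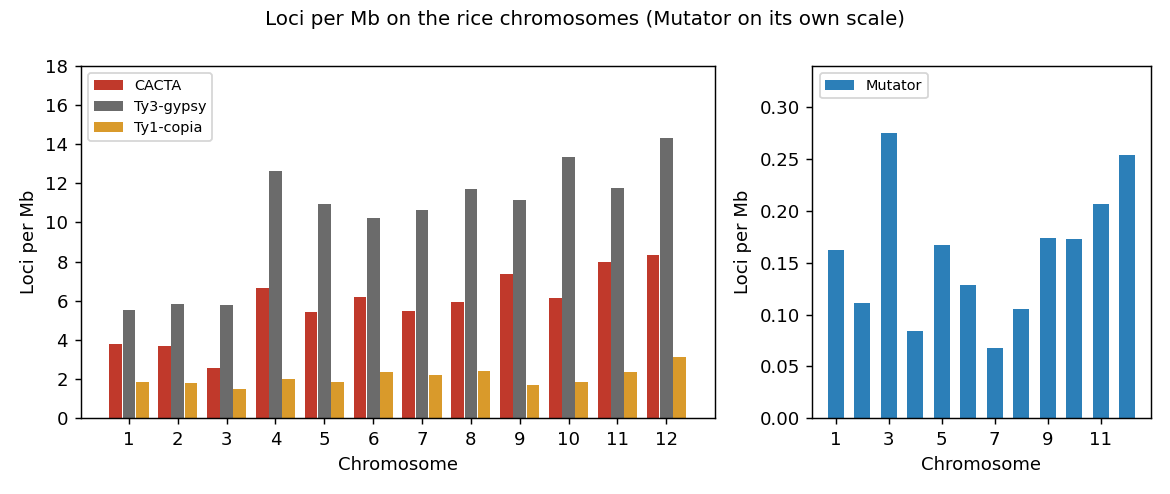
Loci per Mb (y axis) on each of the 12 chromosomes (x axis) for CACTA, Ty3-gypsy and Ty1-copia loci (left) and for Mutator loci on a scale of their own (right). CACTA density runs from 2.58 on chromosome 3 to 8.35 on chromosome 12, and Mutator density from 0.0674 on chromosome 7 to 0.275 on chromosome 3.

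In bins of 1 Mb, placed by the midpoint of each locus, the 380 bins held a median of 4 CACTA loci (quartiles 2 and 9), and 59 bins held none. The loci were uneven along the chromosomes. The variance of the bin counts was 4.39 times their mean, and 50% of the CACTA loci lay in 78 bins. The densest bin, chromosome 6 from 9000001 to 10000000, held 24 CACTA loci, from LOC_Os06g15850 (8999300 to 9004290, plus strand) to LOC_Os06g17240 (9985251 to 9988937, plus strand). It held 2 Ty3-gypsy, 4 Ty1-copia and 20 other retrotransposon loci, where the median bin held 24 retrotransposon loci in all, and 74 non-TE loci. The next densest bin, on chromosome 4 from 3000001 to 4000000, held 22 CACTA loci together with 39 Ty3-gypsy and 48 non-TE loci. The third, on chromosome 10 from 4000001 to 5000000, held 21 CACTA and 20 Ty3-gypsy loci. A high CACTA density was thus found both with and without a high Ty3-gypsy density. The densest Ty3-gypsy bin, on chromosome 4 from 10000001 to 11000000, held 48 loci of that class and 24 non-TE loci.

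CACTA loci lay in bins with fewer genes. Spearman's rho between CACTA and non-TE counts over the 380 bins was -0.55, beside -0.66 for Ty3-gypsy and -0.35 for Ty1-copia, and rho between CACTA and Ty3-gypsy was 0.46. Bins of a chromosome are neighbours and not independent, so these are descriptions. When the bins were ordered by non-TE loci and divided into 5 groups of 76, the mean CACTA count was 8.22 per bin in the group poorest in genes, 8.93 in the next, 5.99 in the middle group, 2.45 in the fourth and 1.89 in the richest. The highest CACTA mean was therefore not in the poorest bins. The same held for Ty1-copia loci (2.87 in the poorest group, 3.14 in the next) and for the other transposon loci (3.67 and 5.47). Ty3-gypsy counts were highest in the poorest group, with 22.2 per bin, and fell through every group to 3.20. Other retrotransposon counts fell likewise, from 35.4 to 10 per bin. Mutator counts showed no such fall, with means of 0.171, 0.132, 0.132, 0.197 and 0.145 per bin and a rho of 0.01 with the non-TE count. That rho was also near 0 for the other transposon loci, at -0.04. Of the 380 bins, 326 held no Mutator locus, 49 held 1 and 5 held 2. The ratio of variance to mean was 1.02.

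The list gives no centromeres. The median position of the loci described as centromere-specific retrotransposons on each chromosome was used as a landmark. CACTA loci lay at a median of 5.41 Mb from it, Ty3-gypsy loci at 3.72 Mb and Ty1-copia loci at 5.04 Mb. Mutator loci lay at 7.99 Mb, the other transposon loci at 7.82 Mb and non-TE loci at 9.76 Mb. Relative to the mean of its class, CACTA density was 1.21 within 2 Mb of the landmark and 1.73 from 2 to 5 Mb, then 1.18, 0.520 and 0.358 at 5 to 10, 10 to 15 and over 15 Mb. Its highest value was to the side of the landmark. The same held for Ty1-copia (1.49 within 2 Mb, 1.65 from 2 to 5 Mb) and for the other transposon loci (0.965 and 1.07). Ty3-gypsy density was highest next to the landmark, 2.36, followed by 1.69, 0.777, 0.466 and 0.320. Other retrotransposon density was also highest there, 2.09. Within 2 Mb lay 15.4% of CACTA and 30.2% of Ty3-gypsy loci. Although their median distance was longer, 10 of 59 Mutator loci (16.9%) lay within 2 Mb, and the relative Mutator density was highest there, 1.61, on 12 loci in those bins.

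The median length of the CACTA gene models was 3259 bp (quartiles 2232 and 3828, n = 2089), and that of the Mutator models 3186 bp (quartiles 2165 and 3988, n = 59). Length is counted from the start to the end of the representative gene model, introns included, and not over the whole element. Both classes peaked between 3000 and 3500 bp, with 519 CACTA loci (24.8%) and 14 Mutator loci (23.7%) in that class. Ty1-copia peaked at 3500 to 4000 bp with 18.7% and Ty3-gypsy at 500 to 1000 bp with 11.1%. Between 3 and 4 kb lay 37.9% of CACTA, 30.5% of Mutator, 24.9% of Ty1-copia and 14.0% of all retrotransposon loci. The ratio of the upper to the lower quartile was 1.72 for CACTA and 1.84 for Mutator, against 3.47 for Ty3-gypsy and 2.35 for Ty1-copia. The CACTA median was above the Ty3-gypsy median (3013.5 bp) and below the Ty1-copia median (3747 bp) on 12 of 12 chromosomes each.

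The tails were long. LOC_Os05g17050 on chromosome 5 (9722450 to 9740799) spanned 18350 bp, LOC_Os09g09000 on chromosome 9 spanned 18207 bp and LOC_Os10g27260 on chromosome 10 spanned 15984 bp. The shortest CACTA model, LOC_Os05g31700 on chromosome 5 (18456922 to 18457134), had 213 bp. Models over 10 kb numbered 49 CACTA loci (2.35%), against 1.24% of Ty3-gypsy loci, but models over 5 kb were fewer in CACTA, 15.3% against 27.1%. The longest Mutator locus was LOC_Os06g11440 on chromosome 6 (6036698 to 6050429), with 13732 bp and 3 gene models, and the shortest was LOC_Os01g45630 on chromosome 1, with 543 bp.

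**Figure D2:**
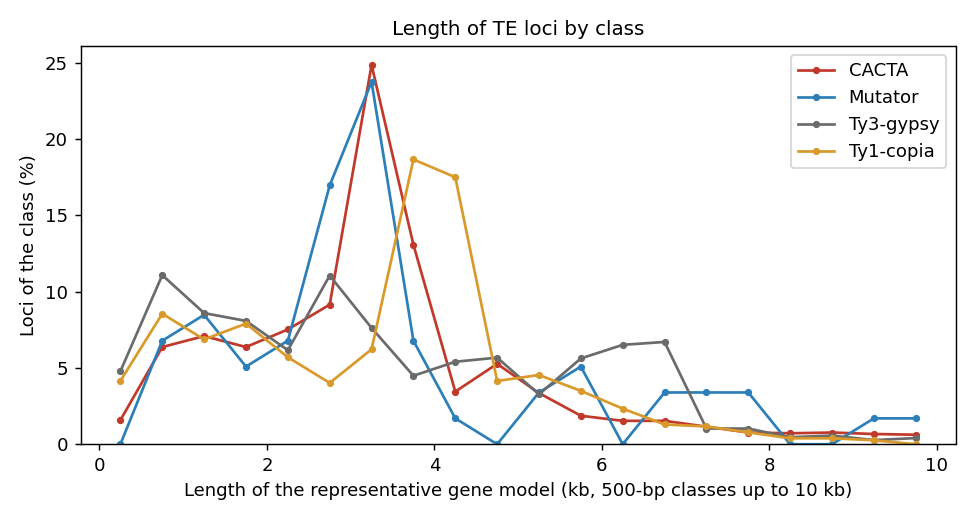
Share of each class (y axis, percent) by length of the representative gene model in classes of 500 bp up to 10 kb (x axis, points at the middle of each class). CACTA and Mutator peak at 3000 to 3500 bp with 24.8% and 23.7%, Ty1-copia peaks at 3500 to 4000 bp with 18.7%, and Ty3-gypsy has no peak above 11.1%.

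The CACTA peak held lengths that recurred to the base. The length 3333 bp occurred 50 times, on 12 of 12 chromosomes, 3698 bp occurred 34 times, 3039 bp 29 times, 3701 bp 27 times, 3332 bp 22 times and 3306 bp 21 times. Of the 2089 CACTA loci, 863 (41.3%) shared their exact length with another CACTA locus, and 343 (16.4%) had a length found at least 5 times. Shared lengths were also common in Ty3-gypsy (50.5%) and less so in Ty1-copia (23.6%). The 59 Mutator loci had 59 different lengths. A class with more loci has more chances of a shared length, so these shares are not comparable between classes of unequal size.

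CACTA loci occurred in neighbouring pairs on the same strand. Of 2088 CACTA loci with a locus on both sides, 1332 (63.8%) were next to another CACTA locus. Next to their own class were 65.9% of Ty3-gypsy, 28.0% of Ty1-copia and 19.0% of the other transposon loci. These shares depend on the number of loci in a class, so classes of unequal size are not comparable by them. The CACTA loci formed 443 runs of 2 and 139 runs of 3 or more. In 692 of the 750 adjacent CACTA pairs (92.3%), both loci had the same strand, with 87.1% on the lowest chromosome and 100% on the highest. Adjacent Ty3-gypsy pairs had the same strand in 797 of 1522 cases (52.4%, chromosome range 41.0% to 61.2%). The CACTA and Ty3-gypsy ranges did not overlap. Adjacent Ty1-copia pairs had the same strand in 98 of 116 cases (84.5%), and their chromosome range of 62.5% to 100% overlapped that of CACTA, and adjacent pairs of the other, mostly unclassified, transposon loci had the same strand in 45.8%. Among runs of exactly 2 CACTA loci the share was 96.8%. Of the 139 runs of 3 or more, 105 (75.5%) were wholly on 1 strand, and of the 23 runs of 4 or more, 12 were. A longer run holds more pairs, so these shares are not comparable with that of pairs.

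The shared strand held over short spacing. When a single other locus lay between a CACTA locus and the next, 138 of 165 pairs (83.6%) had the same strand. With 2 loci between them the share was 69.2% (n = 78), with 3 to 5 it was 53.3% (n = 152), and with more than 10 it was 48.7% (n = 781). Ty1-copia followed a like course, with 84.5% for adjacent loci, 81.0% (n = 21), 73.3% (n = 15) and 58.3% (n = 36) at the next spacings and 52.1% (n = 537) with more than 10 loci between. For Ty3-gypsy the share ranged from 46.3% to 60.8% over all these spacings.

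**Figure D3:**
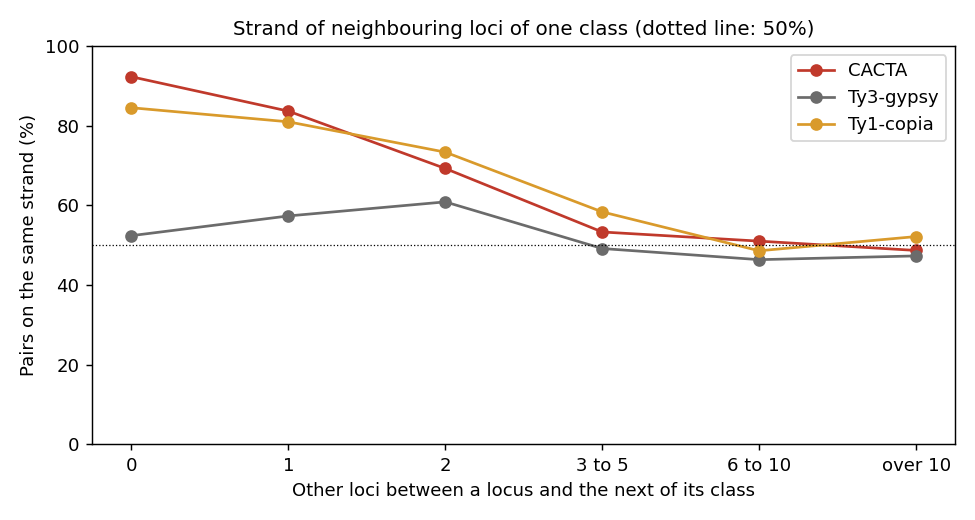
Share of neighbouring loci of the same class that have the same strand (y axis, percent) by the number of other loci between them (x axis), for CACTA, Ty3-gypsy and Ty1-copia loci. The dotted line is at 50%. CACTA falls from 92.3% with no locus between to 48.7% with more than 10, Ty1-copia falls from 84.5% to 52.1%, and Ty3-gypsy stays between 46.3% and 60.8%.

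In the 692 adjacent same-strand pairs the gap had a median of 1947 bp (quartiles 1389 and 2804), and in 430 (62.1%) it was from 1 to 3 kb, against 41.8% of such Ty1-copia pairs and 29.2% of such Ty3-gypsy pairs. Each pair was then read along its strand, with pairs that held a single locus between them included (n = 830). Of the first loci, 38.7% had 3000 to 3500 bp and 5.42% had 3500 to 4000 bp. Of the second loci, 13.9% and 22.4% did. The recurring lengths kept to a side. Loci of 3333 bp were the first of such a pair 45 times and the second 2 times, and loci of 3306 bp were first 21 times and second 0 times. Loci of 3698 bp were first 1 time and second 32 times, and loci of 3039 bp were first 1 time and second 26 times.

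The commonest combination, 3333 bp followed by 3698 bp, occurred 12 times on 8 chromosomes, with a gap of 2531 to 3382 bp. On chromosome 9, LOC_Os09g13550 (7856323 to 7859655) was followed on the plus strand by LOC_Os09g13560 (7862770 to 7866467), with 3114 bp between them. On the same chromosome, LOC_Os09g17280 (10590467 to 10593799) and LOC_Os09g17290 (10596914 to 10600611) repeated this arrangement, the gap of 3114 bp included. On chromosome 1 the pair was LOC_Os01g64160 and LOC_Os01g64150 on the minus strand, with a gap of 2726 bp, and on chromosome 12 it was LOC_Os12g31140 and LOC_Os12g31150 on the plus strand, with a gap of 3124 bp. A length of 3305 bp followed by 3701 bp occurred 6 times on 5 chromosomes, and 3288 bp followed by 3039 bp also occurred 6 times on 5 chromosomes. The list gives no element ends and no sequence, and whether the loci of a pair belong to the same element was not tested.

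The longest CACTA runs had 6 loci, on chromosome 4 (LOC_Os04g05980 to LOC_Os04g06030 and LOC_Os04g23240 to LOC_Os04g23290) and on chromosome 9 (LOC_Os09g13320 to LOC_Os09g13370). In the first, all 6 loci were on the minus strand within 31.6 kb, with lengths of 2215, 1032, 9106, 3333, 904 and 2944 bp. Ty3-gypsy runs reached 13 loci. Mutator loci were far fewer. The nearest other Mutator locus was at a median of 2609 kb, whereas the nearest other CACTA locus of a CACTA locus was at 2.74 kb. A class with fewer loci is spaced more widely wherever its loci lie, so these distances are not comparable between classes of unequal size. The only adjacent Mutator pair, LOC_Os03g37050 (2011 bp, plus strand) and LOC_Os03g37060 (1352 bp, minus strand) on chromosome 3, faced each other across 577 bp. Both neighbours were non-TE loci for 35 of 59 Mutator loci (59.3%) and for 15.0% of CACTA and 8.33% of Ty3-gypsy loci. The share was 45.5% for the other transposon loci, 37.6% for Ty1-copia and 20.5% for other retrotransposon loci. No background share was calculated, so whether the Mutator share exceeds that of loci placed at random was not tested.

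Between CACTA loci lay short non-TE loci on the opposite strand. The list held 109 non-TE loci whose neighbours on both sides were CACTA, and in 90 of them (82.6%) these neighbours had the same strand. In 78 of the 109, the non-TE locus had the strand opposite to both. Between Ty3-gypsy loci lay 75 non-TE loci, with neighbours on the same strand in 46.7%. The median length of the 109 loci was 615 bp, against 2170 bp for all 38864 non-TE loci on the chromosomes, and 60.6% were described only as an expressed or a hypothetical protein, against 41.1%. That share was no lower between Ty3-gypsy loci, 68.0%. The median length there was 1252 bp. The space between the flanking CACTA loci had a median of 3.48 kb.

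A single description stood out among those 109 loci. The words latency associated nuclear antigen, the name of a viral protein, described 25 non-TE loci of the list, and 17 of them (68.0%) lay between CACTA loci, beside 0.280% of all non-TE loci. The 17 were spread over 8 chromosomes, had 453 to 1087 bp, and had the strand opposite to both neighbours in 17 of 17 cases. LOC_Os01g20140 on chromosome 1 (11444192 to 11444686, minus strand) lay between LOC_Os01g20130 and LOC_Os01g20150 on the plus strand. LOC_Os07g11530 on chromosome 7 (6349272 to 6349724, plus strand) lay between LOC_Os07g11520 and LOC_Os07g11540 on the minus strand. Both loci described as precollagen-D and both described as a type I cytoskeletal keratin also lay between CACTA loci. Which sequence these descriptions rest on was not analysed here.

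Mutator loci lay closer to genes than CACTA and Ty3-gypsy loci did, and CACTA loci lay between those classes. The distance from a member to the nearest non-TE locus, counted as the bases between both gene models, had a median of 1611 bp for Mutator (quartiles 846 and 3874, n = 59), 4631 bp for CACTA (quartiles 2016 and 9116, n = 2089), 3172 bp for Ty1-copia and 8568 bp for Ty3-gypsy. Within 2 kb of a non-TE locus lay 33 Mutator loci (55.9%), 517 CACTA loci (24.7%), 31.3% of Ty1-copia and 11.1% of Ty3-gypsy loci. The Mutator median was below that of Ty3-gypsy on 12 of 12 chromosomes and below that of CACTA on 11 of 12, but below that of Ty1-copia on 8 of 12 only. The other transposon loci had a median of 2388 bp, with 43.2% within 2 kb, and the Mutator median was below theirs on 6 of 12 chromosomes. The CACTA median was below that of Ty3-gypsy on 12 of 12 and above that of Ty1-copia on 11 of 12. Part of the CACTA distance depended on the short loci between CACTA pairs. They were the nearest non-TE locus of 219 CACTA loci (10.5%), and without them the CACTA median was 5478 bp. It then remained below the Ty3-gypsy median of 8585 bp on 12 of 12 chromosomes and below that of all retrotransposons, 5877 bp, on 9 of 12.

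The order of CACTA and Ty3-gypsy also held at like gene density. From the bins poorest to those richest in genes, the median CACTA distance was 5788, 4792, 4312, 4235 and 2519.5 bp. The median Ty3-gypsy distance was 12497, 7603, 6660, 6094 and 4854 bp. For other retrotransposon loci it was 7906, 5142, 4167, 3403 and 2776 bp, below CACTA where CACTA had 4312 and 4235 bp. Ty1-copia loci, with 4694, 3655, 2591.5, 2544 and 1950.5 bp, were closer to genes than CACTA loci in every group. The other transposon loci were also closer in every group, with 4180, 3106, 2036.5, 1972.5 and 1626 bp. These CACTA medians counted the short loci between CACTA pairs, and the order without them was not tested by group.

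**Figure D4:**
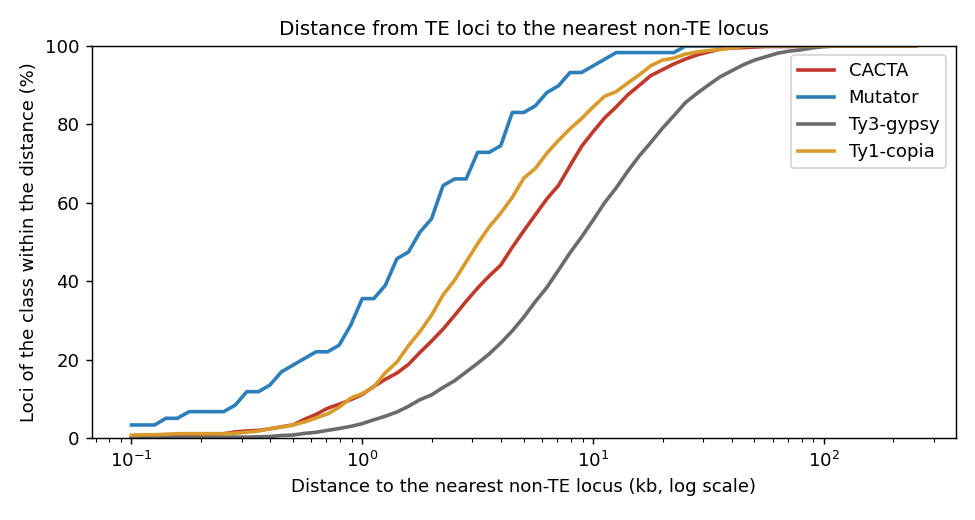
Cumulative share of the loci of each class (y axis, percent) within a given distance of the nearest non-TE locus (x axis, kb on a log scale). The medians are 1611 bp for Mutator, 3172 bp for Ty1-copia, 4631 bp for CACTA and 8568 bp for Ty3-gypsy.

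Of the Mutator loci, LOC_Os11g34305 on chromosome 11 (20097879 to 20107624) overlapped LOC_Os11g34300, described as the chromatin modification-related protein EAF3. LOC_Os05g05520 on chromosome 5 overlapped LOC_Os05g05530, an expressed protein. The next examples have a named neighbour. Others as close lay beside expressed or hypothetical proteins, such as LOC_Os11g15010 at 162 bp. LOC_Os01g64256 on chromosome 1 lay 134 bp from a hemerythrin family gene, and LOC_Os03g37060 402 bp from LOC_Os03g37070, described as a cytochrome P450. LOC_Os12g38160 on chromosome 12 lay 1193 bp from LOC_Os12g38150, described as osmotin, a defense-related protein of plants. The farthest, LOC_Os12g23040 on chromosome 12, lay 24461 bp from a non-TE locus. Overlap was rare in CACTA, with 4 loci. These were LOC_Os01g25710, beside the disease resistance gene LOC_Os01g25720, LOC_Os03g05830, beside the kinesin gene LOC_Os03g05820, LOC_Os09g17040 and LOC_Os12g13180. The farthest CACTA locus, LOC_Os04g19470 on chromosome 4, lay 93161 bp from a non-TE locus.

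Relative to the nearest gene, 36 of 57 Mutator loci without overlap lay downstream and 21 (36.8%) upstream. CACTA loci lay upstream in 52.9%, as did 52.9% of Ty3-gypsy loci. Counted from the genes, 272 of 38864 non-TE loci (0.700%) had a CACTA locus reaching into the 2 kb upstream and 298 in the 2 kb downstream. For Mutator the numbers were 19 and 31. A CACTA locus in both windows was found for 45 non-TE loci, and a Ty3-gypsy locus in both for 7. For other retrotransposon loci, a class of 7543, the number was 42. How many of the 45 are among the 109 loci between CACTA loci was not counted. Per 100 loci of the class, 32.2 genes had a Mutator locus upstream within 2 kb, 13.0 a CACTA locus, 16.5 a Ty1-copia and 5.46 a Ty3-gypsy locus. For the other transposon loci the number was 26.2.

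The mark as expressed belongs to the annotation and does not come from the libraries of the study. It was carried by 88.2% of all loci and by 75.8% of all TE loci. Among members it was carried by 1654 of 2089 CACTA loci (79.2%, exact 95% binomial interval 77.4 to 80.9) and by 57 of 59 Mutator loci (96.6%, 88.3 to 99.6). Ty3-gypsy loci carried it in 73.6% and all retrotransposons in 74.4%. The other transposon loci carried it in 82.9%, and the CACTA share was below theirs on 8 of 12 chromosomes. The intervals cover counting error only, and copies of an element are not independent. The CACTA share was above that of Ty3-gypsy on 11 of 12 chromosomes and ranged from 72.2% on chromosome 9 to 83.9% on chromosome 10. The CACTA share exceeded that of Ty1-copia, 76.9%, on 7 of 12 chromosomes only. The Mutator share was above that of CACTA on 11 of 12. The Mutator loci without the mark were LOC_Os03g59960 on chromosome 3, with 618 bp, and LOC_Os05g46660 on chromosome 5, with 1923 bp.

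The mark followed length. CACTA loci under 1 kb were marked in 29.5% (n = 166), those of 1 to 2 kb in 56.6% (n = 281), those of 2 to 4 kb in 85.7% (n = 1140) and those of 4 kb or more in 93.4% (n = 502). At the same lengths, Ty3-gypsy loci were marked in 40.5%, 47.2%, 79.4% and 94.3%. The CACTA share was thus the lower of both under 1 kb and at 4 kb or more, and the higher in between. The intervals overlapped except from 2 to 4 kb (83.5 to 87.7 against 76.9 to 81.8). They treat copies of an element as independent, so this separation does not establish a class difference. From 2 to 4 kb, the other transposon loci were marked in 86.0%, Ty1-copia loci in 82.8% and other retrotransposon loci in 82.6%. The class with the most CACTA loci, 2 to 4 kb, held 54.6% of them and 29.3% of Ty3-gypsy loci. The loci with the recurring lengths of 3333, 3698, 3701, 3332 and 3306 bp were all marked, and 26 of 29 loci of 3039 bp were. CACTA loci in runs of 3 or more were marked in 68.8% (n = 446), with a median length of 2847.5 bp, against 82.2% of single CACTA loci (n = 757), with 3241 bp. In the run of 6 from LOC_Os04g05980, the loci without the mark were those of 1032 and 904 bp. A second gene model was listed for 16 CACTA loci (0.766%) and 4 Mutator loci (6.78%), and LOC_Os01g07070, LOC_Os03g50090 and LOC_Os11g34150 had the most among CACTA, 4 each.

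**Figure D5:**
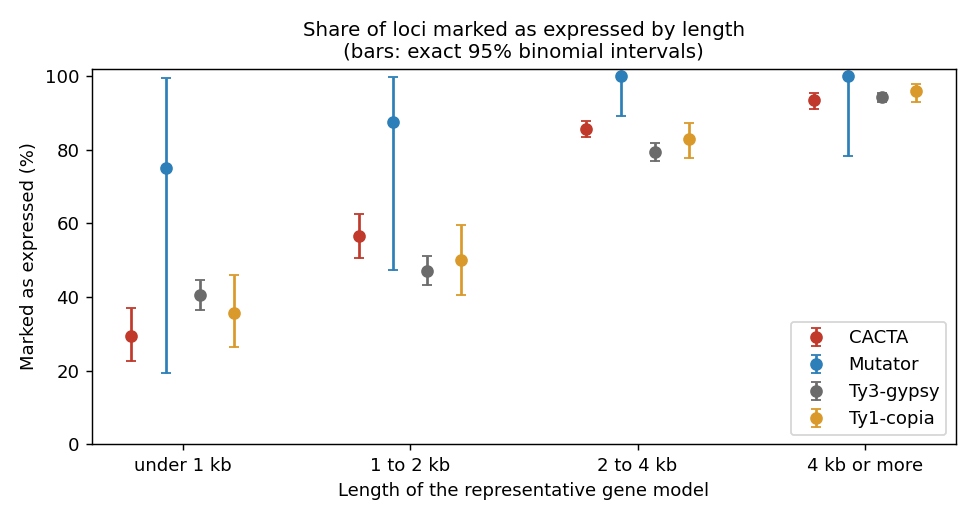
Share of loci marked as expressed in the annotation (y axis, percent, with exact 95% binomial intervals) by length class (x axis) for CACTA, Mutator, Ty3-gypsy and Ty1-copia loci. CACTA runs from 29.5% under 1 kb to 93.4% at 4 kb or more, and the intervals of Mutator are wide below 2 kb, where it has 12 loci.

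ART1 and other genes named by the study in connection with Al were looked up. Of 10 genes, 0 had a CACTA or Mutator locus within 10 kb. This is close to the background, since 6.39% of all 38864 non-TE loci had one, 5.97% a CACTA and 0.427% a Mutator locus. ART1, which encodes a zinc finger transcription factor (LOC_Os12g07280, chromosome 12, 3580032 to 3582974), had its nearest CACTA locus, LOC_Os12g07630, 247 kb downstream and its nearest Mutator locus, LOC_Os12g07080, 108 kb upstream. Within 1 Mb of ART1 lay 3 CACTA and 2 Mutator loci. The other 9 genes had no Mutator locus within 1 Mb. The shortest CACTA distance was 36.4 kb, from LOC_Os04g41670 to LOC_Os04g41750, followed by 46.3 kb from LOC_Os10g14030 to FRDL2. STAR1, a subunit of an ABC transporter needed for Al tolerance, had its nearest CACTA locus at 421 kb, and Nrat1, an Al transporter of the plasma membrane, at 155 kb. The median over the 10 genes was 189 kb, against 152 kb over all non-TE loci, and for Mutator it was 2872 kb against 2109 kb.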

How the data were processed

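Whole-root RNA of the 32 libraries was sequenced by the authors, but the file used here is the MSUv.7 annotation that they deposited. Its deposited values are start and end positions in bp, not normalized, 1 line for each of 66338 gene models, with marks for TE, expressed and representative models set by the annotation. It holds 0 columns of single samples, so there is no sequencing depth, no samples were grouped for a test, and counts of loci alone limit the precision. Representative models gave 1 line per locus. Densities used the midpoint of each model in 1-Mb bins, and distances were the bases between models, 0 where they overlap. The distance code was tested on simulated data. The members and lists were chosen with earlier results of these data known. Loci named were the 3 longest and shortest of each class, the ends of the densest bin and longest run, those with most models and those nearest the Al genes. Recurring lengths, pair positions, loci between CACTA loci, the centromere landmark and other loci named were chosen after their values were seen. Sequences are not printed, since no genome of this build was used here. The RefSeq table of 39387 genes matched 0 member identifiers. Alternatives changed the rule, model, neighbour, window and bins. The tools were pandas 2.3.3 and numpy 2.4.6 for counting, scipy 1.17.1 for intervals and rho, and matplotlib 3.10.9 for plots, under Python 3.11.15.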

Additional observations from a re-analysis of the deposited data

How the results depend on the processing

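Of 44 values under other settings, 32 stayed within 1.5 times the count or within the 95% interval of the value reported, and 12 did not. Of the settings, 6 were chosen after the data were seen. The median CACTA length was 3333 bp over loci marked as expressed, and the share of CACTA loci marked as expressed was 83.5% over loci of at least 1 kb, since short loci were marked less often. The median CACTA distance was 5290 bp to non-TE loci marked as expressed, 5201 bp to those not described as hypothetical, 5478 bp without the loci between CACTA loci and 7772 bp from midpoint to midpoint, the first 3 by fewer neighbours and the last by including model lengths. The Mutator distance was 4503.5 bp from midpoint to midpoint. Non-TE loci with a CACTA locus upstream numbered 95 in 1 kb and 14 with the CACTA locus wholly inside 2 kb, and those with a Mutator locus 7 and 2. A narrower window holds fewer loci, and most members are longer than 2 kb and cannot lie wholly inside. The share of adjacent CACTA pairs on the same strand was 96.8% in runs of exactly 2. Related wordings (TNP1, Transposase_24 and MuDR) gave 2100 CACTA and 61 Mutator loci. No paired analysis was possible because no value of a library was used. The list is of a single reference genome, describes gene models rather than whole elements, and counts only elements that hold a predicted gene, so short non-coding copies are outside it. With 59 Mutator loci, shares per chromosome or length class rest on few loci.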

Other observations

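Among TE loci outside both classes, 109 were described as Pong, 40 as Mariner and 28 as Ac/Ds, and 1497 as unclassified transposons. The words FAR1 and SWIM were found without either class name. FAR1 stood in the description of 5 non-TE and 2 TE loci, and SWIM in that of 6 non-TE and 4 TE loci. The non-TE loci nearest to CACTA loci, 1483 in number, were described as an expressed protein in 44.3% and had a named product in 45.3%, against 35.4% and 58.6% of all 39049 non-TE loci, and those nearest to Ty3-gypsy loci had a named product in 43.9%.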
